A study of Mus musculus with 12 samples.

Results

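The 10 genes described here encode the DNA damage and replication stress checkpoint kinases and the proteins that work directly with them: *Atr*, *Atrip*, *Topbp1*, *Rad9a*, *Hus1*, *Clspn*, *Chek1*, *Wee1*, *Atm* and *Chek2*. They were taken from the count table by gene name, and all 10 were found among its 32288 genes. RNA-seq was performed on mGFP+ cells sorted from the metaphysis of the long bones in 4 groups of mice, 12 libraries in all, and every group carried *Osx-CreERT2* and *mTmG*, so that tamoxifen switched on membrane GFP in cells that expressed *Osx*, an osteoblast lineage gene. Juvenile (3 weeks of age, 4 libraries) and adult (8 weeks of age, 4 libraries) osteoblasts had no further allele, came from 2 male mice pooled per library, and were collected 2 days after tamoxifen. The c-Myc osteoblasts (2 libraries) also carried *LSL-tTA* and *Col1a1::TetO-c-Myc*, a transgene that expresses *c-Myc* together with mCherry once Cre has released the transactivator, and the c-Myc + R172H osteoblasts (2 libraries) carried in addition *Trp53-LSL-R172H*, a conditional mutant p53 allele. These mice received 2 consecutive tamoxifen treatments at 3 weeks of age and were analysed 7 days after, whereas the normal mice had received 3. The bone was cut about 5 mm from the growth plate, against 2 mm in the normal mice. Per the methods, mice with the inducible transgene, or their mothers, also drank doxycycline or tetracycline beforehand to keep it off. None of these differences, nor the age at analysis (5 weeks in the dissection protocol), can be told apart from c-Myc itself in the comparisons with juvenile osteoblasts. The sex of the induced mice is given in 2 ways (males only, or both). *Xist*, a transcript of female cells, was high in part of the libraries of both induced groups and low in all normal ones (values below). The induced groups therefore also held female cells.

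ATR and ATM are large protein kinases of the PI3K-like family that stand at the top of the checkpoint. ATR is recruited by its partner ATRIP to single-stranded DNA coated with RPA, as found at stalled replication forks, and is switched on there by TOPBP1, which is positioned by the ring-shaped RAD9–HUS1–RAD1 clamp. Claspin, the product of *Clspn*, bridges ATR to its effector kinase CHK1 (*Chek1*), whereas ATM responds to double-strand breaks and acts mainly through CHK2 (*Chek2*). WEE1 phosphorylates the cyclin-dependent kinases directly and holds them inactive. Most of this pathway runs on phosphorylation, which RNA-seq does not measure, and the values below are transcript levels only. In bulk samples fewer cells with a transcript and less transcript per cell cannot be told apart.

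The promoters of these genes are described first, from RefSeq on the GRCm38.p6 build. Of the 10 genes, 8 had an entry in the RefSeq promoter table (all but *Wee1* and *Rad9a*), as did *Npat*. The 250 bases before each RefSeq start site were searched on both strands for the E-box CACGTG, bound by MYC–MAX, for the E2F forms TTTGGCGC, TTTCGCGC and TTTCCCGC, and for the cell cycle homology region TTTGAA. The *Chek1* window lay wholly inside the gene as GENCODE annotates it, so the bases before its GENCODE start were not searched. Inside the gene also lay 112 bases of the *Topbp1* window, 69 of *Atm*, 45 of *Clspn* and 4 of *Chek2*. No E-box was found in the 8 windows, and 6.02% of all 32851 windows of the table held one. An E2F form was present in 2 of the 8 (*Topbp1* and *Chek2*), beside 1.53% of all windows, and the TTTGAA element in 1 (*Hus1*, 2 copies), beside 16% of all windows. G and C made up 73.2% of the *Topbp1*, 55.6% of the *Chek2* and 52.0% of the *Hus1* window. The median over all windows was 52.4%, and these shares were not matched for it. The 3 windows with a match are printed 5′ to 3′ in the direction of the gene, up to the first base that GENCODE assigns to it, with the matched letters in capitals; all 4 matches lay on the opposite strand of the gene. The start of the E2F match lay 129 bases before the RefSeq start of *Topbp1* and 152 bases before that of *Chek2*, and the *Hus1* matches lay 188 and 157 bases before its start.
*Topbp1*, chr9:103305077-103305214, plus strand: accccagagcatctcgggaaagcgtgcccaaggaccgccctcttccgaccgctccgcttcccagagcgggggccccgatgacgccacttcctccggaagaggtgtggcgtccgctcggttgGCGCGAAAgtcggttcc
*Chek2*, chr5:110839733-110839978, plus strand: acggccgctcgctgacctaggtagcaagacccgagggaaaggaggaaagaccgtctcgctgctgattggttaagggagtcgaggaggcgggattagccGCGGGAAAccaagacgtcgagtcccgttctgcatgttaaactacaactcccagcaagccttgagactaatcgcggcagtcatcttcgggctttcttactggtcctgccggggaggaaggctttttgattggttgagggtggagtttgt
*Hus1*, chr11:9011192-9011441, minus strand: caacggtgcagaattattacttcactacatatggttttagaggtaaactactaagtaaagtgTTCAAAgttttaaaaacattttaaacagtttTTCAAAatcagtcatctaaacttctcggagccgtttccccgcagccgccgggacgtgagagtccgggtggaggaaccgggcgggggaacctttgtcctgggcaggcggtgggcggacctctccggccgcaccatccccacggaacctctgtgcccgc

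*Atm* is transcribed away from *Npat*, a gene required for histone transcription in S phase, and the stretch between the 2 starts is shared by both (306 bases in GENCODE, with *Atm* on the minus and *Npat* on the plus strand of chromosome 9). This pair is shown because the 2 transcripts responded unequally, as described below. The windows overlap by 125 bases, and neither held any of the 3 elements.
*Atm*, chr9:53536741-53536921, minus strand: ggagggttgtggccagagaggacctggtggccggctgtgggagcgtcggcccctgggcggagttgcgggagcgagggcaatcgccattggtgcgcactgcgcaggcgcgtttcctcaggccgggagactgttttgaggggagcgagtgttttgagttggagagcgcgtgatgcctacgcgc
*Npat*, chr9:53536797-53537046, plus strand: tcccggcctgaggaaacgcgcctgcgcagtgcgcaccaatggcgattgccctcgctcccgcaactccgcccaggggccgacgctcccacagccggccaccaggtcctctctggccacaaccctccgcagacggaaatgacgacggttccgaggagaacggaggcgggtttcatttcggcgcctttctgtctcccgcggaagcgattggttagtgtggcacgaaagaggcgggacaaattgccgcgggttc

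The libraries held 9066154 to 15684412 counts. Values are given as counts per 1000000 (CPM) after TMM scaling over the 12 libraries, so 3 counts, taken as the smallest detectable level, corresponded to 0.137 to 0.417 CPM; such limits cover counting error only. The *c-Myc* transgene was visible in the labelled groups, as *Myc* ranged from 39.8 to 52.2 CPM in juvenile and from 624 to 747 CPM in the 4 induced libraries. The 8 osteoblast markers summed to 391000–570000 CPM in juvenile, 228000–411000 in adult, 67000–89600 in c-Myc and 36500–38400 in c-Myc + R172H osteoblasts, and the 6 chondrocyte markers to 8320–24600, 32600–118000, 327–519 and 146–151 CPM. Leukocyte markers (6 genes) stayed between 1.10 and 12.7 CPM and endothelial markers (5 genes) at or below 1.24 CPM in every library, with *Cd3e* at 0 in all 4 groups. Osteoclast markers (4 genes) summed to 203–332 CPM in juvenile, 221–411 in adult, 83.9–104 in c-Myc and 52.2 in both c-Myc + R172H libraries, with *Ocstamp* at 0 in all 4 groups, and stromal markers (4 genes) to 261–345, 323–569, 76.1–149 and 61.5–79.6 CPM. The tdTomato entry of the table was at 0.695–8.67 CPM in juvenile, 1.72–7.11 in adult and 28.9–34.5 in the induced libraries, whose transgene also encodes mCherry, a related red fluorescent protein; whether its reads are counted there was not tested. *Xist*, a transcript of female cells, was at 0.0457 and 233 CPM in the 2 c-Myc and at 0.183 and 212 CPM in the 2 c-Myc + R172H libraries, and at or below 1.24 CPM in all normal libraries. The part of these shifts in the results below was not tested.

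In normal osteoblasts the checkpoint genes were expressed at low and unequal levels. Levels can be compared between genes only per length, and on a scale of counts per kilobase of exon, scaled to the same total in each library over the 32158 genes with an annotated length, *Topbp1* (6.54 ± 1.68, SD, n = 4) and *Rad9a* (7.26 ± 5.77) had the highest means in juvenile osteoblasts. The *Rad9a* mean rests on juvenile replicate 1, without which, an alternative chosen after seeing the data, it was 4.45 ± 1.61. *Atm* (4.11 ± 1.45), *Atrip* (3.83 ± 0.208) and *Wee1* (3.37 ± 2.47) followed and did not differ beyond their spread. *Hus1* was at 2.71 ± 1.05, *Clspn* at 1.89 ± 0.987 and *Atr* at 1.59 ± 0.375, again with overlapping spreads. The effector kinases were lowest, with *Chek2* at 0.831 ± 0.777 and *Chek1* at 0.824 ± 0.903, or 0.417 ± 0.481 without juvenile replicate 1. The place of *Atr* depended on the length used, because its annotated exons add up to 23629 bases while its longest transcript has 8102 bases. Per length of the longest transcript *Atr* was at 3.61 ± 0.856 in juvenile osteoblasts, above *Atm* at 3.37 ± 1.20.

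**Figure D1:**
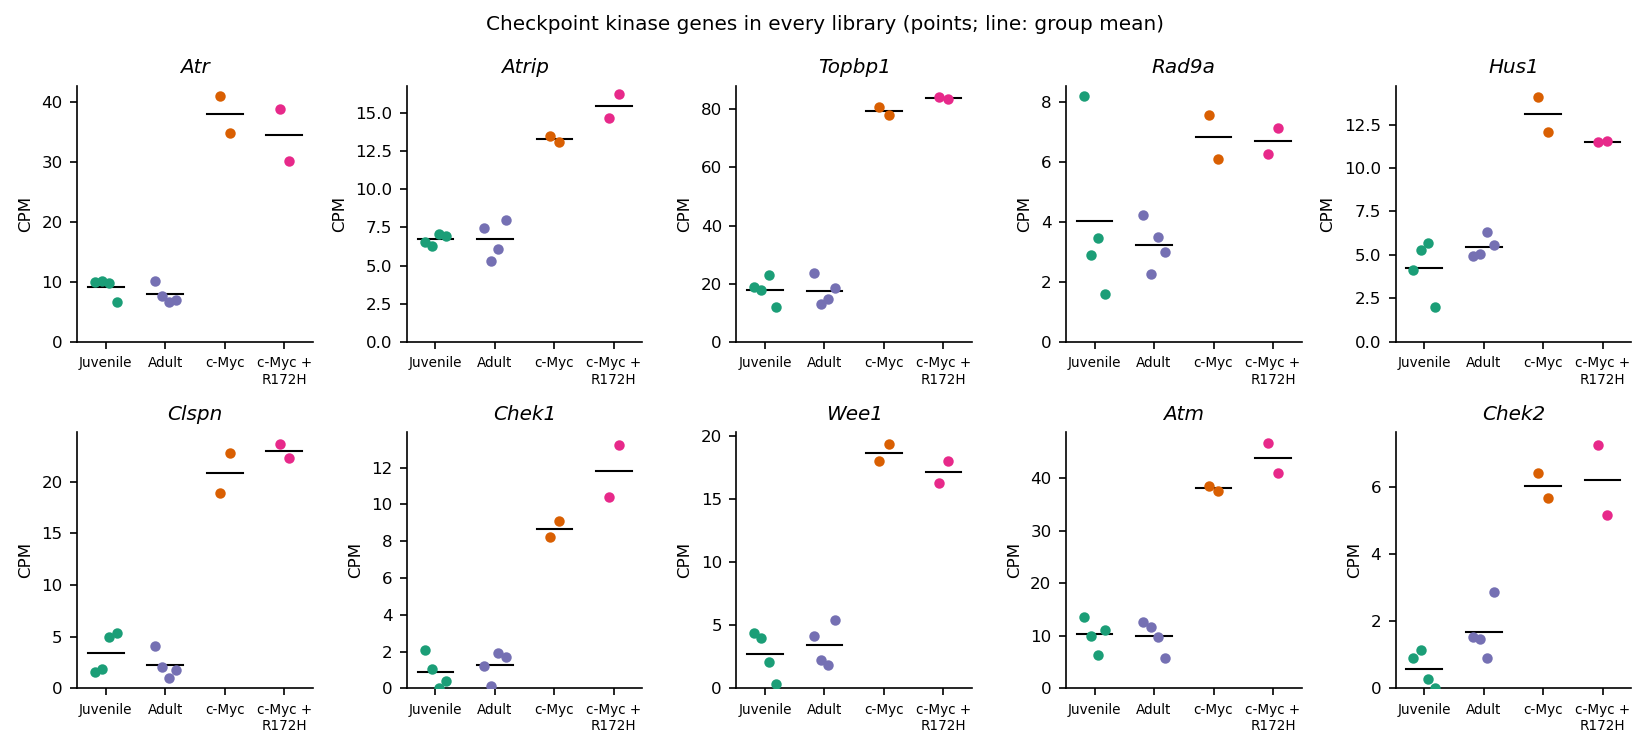
Level of each of the 10 genes in every library, in CPM on a linear axis from 0, by group. Points are libraries (4 juvenile, 4 adult, 2 c-Myc, 2 c-Myc + R172H) and lines are group means. For 9 genes every c-Myc library lies above every juvenile library, and *Rad9a* is the exception because 1 juvenile library is at 8.22 CPM.

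The first comparison asked whether the checkpoint genes differ between growing juvenile and adult osteoblasts. No difference passed the test, and the 2 groups overlapped for every gene. *Atr* was at 9.95, 10.1, 9.87 and 6.58 CPM in the 4 juvenile libraries and at 10.2, 7.67, 6.72 and 7.03 CPM in the adult libraries. *Atm* was at 13.5, 9.90, 6.39 and 11.2 CPM in juvenile and at 12.7, 11.6, 9.83 and 5.86 CPM in adult osteoblasts. The log2 fold change (juvenile over adult) was 0.20 ± 0.26 (SE) for *Atr* and 0.03 ± 0.29 for *Atm*, with adjusted p = 0.758 and 0.974 (edgeR quasi-likelihood test).

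The values of the partners and of the clamp overlapped as well. *Atrip* varied least of the set among juvenile libraries, which were at 6.57, 6.29, 7.09 and 6.95 CPM, while adult libraries were at 7.49, 5.3, 6.08 and 7.99 CPM. *Topbp1* was at 18.7, 17.9, 23.1 and 12 CPM in juvenile and 23.7, 13.0, 14.7 and 18.6 CPM in adult osteoblasts, the highest of the 10 on this scale. *Hus1* was at 4.11, 5.26, 5.70 and 1.99 CPM in juvenile and 4.96, 5.08, 6.34 and 5.54 CPM in adult libraries, a log2 fold change of -0.37 ± 0.37 (SE) with the single low library inside the juvenile group. *Rad9a* was at 8.22, 2.89, 3.48 and 1.61 CPM in juvenile and 4.25, 2.26, 3.49 and 2.98 CPM in adult libraries, so 1 juvenile library stood far above all others.

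The genes that carry the signal onward were scarce in normal cells and scattered widely between replicates. *Chek1* had 23, 10, 0 and 3 counts in the juvenile libraries and 12, 1, 15 and 16 in the adult libraries, and *Chek2* had 10, 11, 2 and 0 against 15, 13, 7 and 27. In CPM the juvenile values of *Chek1* were 2.10, 1.03, 0 and 0.372 and those of *Wee1* were 4.38, 4.02, 2.09 and 0.372, so the juvenile libraries 1 and 2 were the higher pair for both. *Clspn* went the other way, with 1.55, 1.86, 5.00 and 5.34 CPM in the same 4 libraries. The log2 fold change over adult was 0.59 ± 0.57 (SE) for *Clspn*, -0.45 ± 0.94 for *Chek1* and -0.33 ± 0.60 for *Wee1*, so each error was about as large as the value itself or larger. *Chek2* did not pass the filter on low counts in this comparison, and its fold change was not tested in this fit.

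Of the 9 genes tested, 0 were called higher and 0 lower, and 0 had an unadjusted p under 0.05 in edgeR. DESeq2 likewise called 0 of the 9 in either direction. In the same fit 1.89% of 11345 genes were called higher in juvenile and 3.23% lower, so a count of 0 among 9 lay near the background. The median log2 fold change of the 9 was 0.02, beside 0.00093 over all genes tested. Of the other 56 genes of the checkpoint pathway (clamp loaders, fork and break sensors, mediators, DNA-PK, kinase chaperones, CDC25, cyclin and CDK genes, and recovery factors), 54 were tested, 0 were called, and 3 had an unadjusted p under 0.05. An unadjusted p under 0.05 in edgeR was found for 2233 of all 11345 genes, a larger share than among the 9 or the 54. DESeq2 called 1 of the 54. *Prkdc*, the catalytic subunit of DNA-PK and the closest functional relative of *Atm* and *Atr*, was at 9.77, 14.9, 13.2 and 9.06 CPM in juvenile and 18.1, 17.6, 12 and 15.0 CPM in adult libraries (log2 fold change -0.43 ± 0.23 SE, adjusted p = 0.316). The 8 log2 ratios between members and that of *Atm* over *Npat*, computed within each library, were also compared between the ages, and the lowest p was 0.286 (*Rad9a* over *Hus1*, adjusted p = 0.686, exact two-sided permutation test).

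The second comparison asked what c-Myc induction does to these genes. The transcripts of both apex kinases, of the activator and mediator, and of all 3 downstream kinases rose. *Atr* was at 40.9 and 34.9 CPM in the 2 c-Myc libraries, 4.07-fold above juvenile (log2 fold change 2.03 ± 0.19 SE, adjusted p = 1.9e-06, edgeR). *Atm* was at 38.6 and 37.5 CPM, 3.61-fold above juvenile (1.85 ± 0.21, adjusted p = 1.07e-05). The lowest c-Myc library of either gene lay above 34 CPM, beyond the highest juvenile library.

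*Topbp1*, the activator of ATR, reached 80.7 and 78.0 CPM, a rise of 4.36-fold (2.12 ± 0.17, adjusted p = 6.47e-07, edgeR). *Clspn* reached 18.9 and 22.7 CPM, a rise of 6.19-fold (2.63 ± 0.36, adjusted p = 5.41e-05). *Hus1*, a subunit of the clamp, reached 14.1 and 12.1 CPM, a rise of 3.02-fold (1.60 ± 0.31, adjusted p = 0.000907). No c-Myc value of these 3 genes fell within the juvenile range.

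The downstream kinases rose as well. *Chek2* reached 6.44 and 5.67 CPM, a fitted 9.49-fold rise (3.25 ± 0.60, adjusted p = 0.000582), and *Chek1* reached 8.22 and 9.13 CPM, a fitted 8.83-fold rise (3.14 ± 0.57, adjusted p = 0.000536). Both rest on juvenile libraries with at most 23 counts, of which 1 was at 0 for each gene, and the log2 fold change of *Chek1* ranged from 2.78 to 4.04 when 1 library at a time was left out. *Wee1* reached 18 and 19.3 CPM, a rise of 6.49-fold (2.7 ± 0.44, adjusted p = 0.000229, edgeR).

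The other 2 genes were not called. *Atrip*, the obligate partner of ATR, was at 13.5 and 13.1 CPM, 1.95-fold above juvenile. Its log2 fold change of 0.96 ± 0.19 passed the test (adjusted p = 0.00108) but lay just under the fold limit of 1 set for this comparison. *Rad9a*, the clamp subunit that holds TOPBP1, was at 7.58 and 6.12 CPM, inside the juvenile range, with a log2 fold change of 0.70 ± 0.47 and adjusted p = 0.229. This result rested on juvenile replicate 1 with its 90 counts. Without that library the *Rad9a* log2 fold change was 1.35 (adjusted p = 0.00889, edgeR) and it was called. Exons of *Rad9a* overlap those of *Ppp1ca* on the opposite strand over 225 bases (9.53% of its exon length), and *Ppp1ca* had up to 2931 counts per library. *Atrip* shares 1147 bases of exon (16%) on the same strand with *Trex1*, which was listed at 0 in every library. How reads in such overlaps were assigned is not given in the sources used here, so the counts of both genes carry this uncertainty.

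In total 8 of 10 genes were called higher in c-Myc osteoblasts (9 of 10 by the adjusted p alone) and 0 lower. Among all 12588 genes tested, 18.4% were called higher, 28.4% were higher by the adjusted p alone, and 16% were called lower. The median log2 fold change of the 10 was 2.08, beside 0.04 over all genes. For 9 of 10 both c-Myc libraries lay above all 4 juvenile libraries, which held for 35.7% of all genes. When library totals replaced TMM scaling, the median over all genes moved to 0.87 and that of the 10 genes to 2.90.

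**Figure D2:**
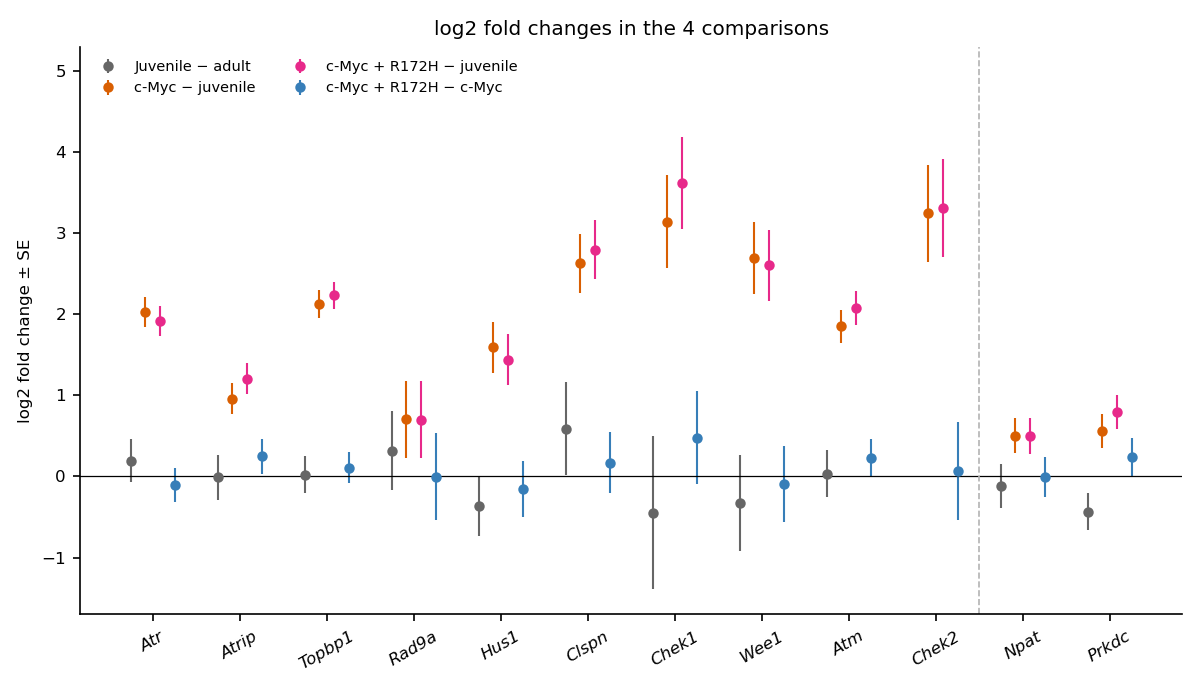
log2 fold change with its standard error (vertical axis) of the 10 genes, and of *Npat* and *Prkdc* to the right of the dashed line, in the 4 comparisons. The c-Myc and c-Myc + R172H values lie between 0.70 and 3.62 for the 10 genes, and those between the ages and between the 2 induced groups lie around 0. *Chek2* has no age value because it did not pass the filter.

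The third comparison asked what mutant p53 adds to c-Myc, and no difference in these genes was detected with 2 libraries a group. *Atm* was at 46.6 and 41.0 CPM and *Atr* at 38.9 and 30.1 CPM in c-Myc + R172H osteoblasts. The log2 fold change over c-Myc was 0.23 ± 0.23 (SE) for *Atm* and -0.11 ± 0.21 for *Atr*. *Topbp1* at 84.4 and 83.5 CPM and *Clspn* at 23.6 and 22.3 CPM had log2 fold changes of 0.11 ± 0.19 and 0.17 ± 0.38. The largest difference was that of *Chek1*, at 10.4 and 13.2 CPM, both above the 2 c-Myc libraries, with a log2 fold change of 0.48 ± 0.58 (adjusted p = 1.00, edgeR).

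The remaining genes ranged from -0.15 ± 0.35 for *Hus1* (11.5 and 11.6 CPM) to 0.25 ± 0.22 for *Atrip* (14.7 and 16.2 CPM). *Wee1* was at 16.2 and 18 CPM, *Chek2* at 7.27 and 5.16 CPM and *Rad9a* at 6.27 and 7.14 CPM. Of the 10 genes, 0 were called in either direction and 0 had an unadjusted p under 0.05 in edgeR, while DESeq2 also called 0 but gave no adjusted p for 3 of them. The background was sparse too, with 0.00794% of 12588 genes called higher, 0.461% lower, and 589 genes at an unadjusted p under 0.05. It depended on the libraries fitted, since with only these 2 groups 189 genes were called higher and 440 lower of 12170, and still 0 of the 10 members, of which *Chek1* had the lowest adjusted p (0.0789, edgeR). The standard errors ran from 0.19 for *Topbp1* to 0.60 for *Chek2* on the log2 scale.

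Compared directly with juvenile osteoblasts, with which the c-Myc comparison shares its 4 control libraries, c-Myc + R172H osteoblasts had 9 of 10 genes called higher, beside 19.6% of all genes, and for 9 of 10 the groups did not overlap, beside 36.6% of all genes. *Atrip* was among the genes called (2.31-fold, log2 fold change 1.21 ± 0.19, adjusted p = 0.000157, edgeR), and *Rad9a* again was not (0.70 ± 0.47, adjusted p = 0.223), although without juvenile replicate 1 it was called at 1.34 (adjusted p = 0.00844, edgeR). *Chek1* rose 12.3-fold and *Chek2* 9.94-fold, *Clspn* 6.97-fold, *Wee1* 6.08-fold, *Topbp1* 4.70-fold, *Atm* 4.24-fold, *Atr* 3.78-fold and *Hus1* 2.71-fold. The log2 fold change of *Chek1* ranged from 3.26 to 4.52 when 1 library at a time was left out.

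*Atr* and *Atrip*, whose proteins act in 1 complex, had unequal fold changes, and for the clamp genes *Rad9a* and *Hus1* this was less clear. Ratios between 2 genes of the same library do not depend on how libraries are scaled. The log2 ratio of *Atr* to *Atrip* was 0.595, 0.680, 0.473 and -0.0787 in juvenile libraries and 1.60 and 1.41 in c-Myc libraries. It was therefore 2.13-fold higher on average, and no library overlapped. In c-Myc + R172H libraries it was 1.40 and 0.891. The log2 ratio of *Rad9a* to *Hus1* was 0.992, -0.854, -0.703 and -0.290 in juvenile and -0.894 and -0.977 in c-Myc libraries. The c-Myc values lay just below the lowest juvenile value. In c-Myc + R172H libraries it was -0.871 and -0.692, which overlapped with juvenile. Without juvenile replicate 1 the *Rad9a* log2 fold change on c-Myc induction was 1.35, beside 1.60 for *Hus1* with all libraries.

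The log2 ratio of *Atr* to *Atm* averaged -0.137 ± 0.600 (SD, n = 4) in juvenile, -0.296 ± 0.392 (n = 4) in adult and -0.00886 ± 0.134 (n = 2) in c-Myc libraries. That of *Topbp1* to *Atr* averaged 0.955 ± 0.180 in juvenile and 1.07 ± 0.127 in c-Myc libraries. For both pairs the c-Myc libraries lay within the juvenile range. *Chek1* over *Atr* averaged -4.14 ± 2.14 in juvenile, -2.12 ± 0.270 in c-Myc and -1.54 ± 0.504 in c-Myc + R172H libraries, and the 2 c-Myc + R172H libraries (-1.90 and -1.18) lay above all juvenile libraries (-7.16 to -2.22). *Wee1* over *Chek1* averaged 1.98 ± 2.13, 1.11 ± 0.0363 and 0.540 ± 0.138 in the same groups. The juvenile spread of both ratios was widest in replicate 3, which had 0 *Chek1* counts. With 4 against 2 libraries the exact two-sided permutation test cannot go below p = 0.133, and with 2 against 2 not below 0.333, so these c-Myc ratios are values without a call.

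**Figure D3:**
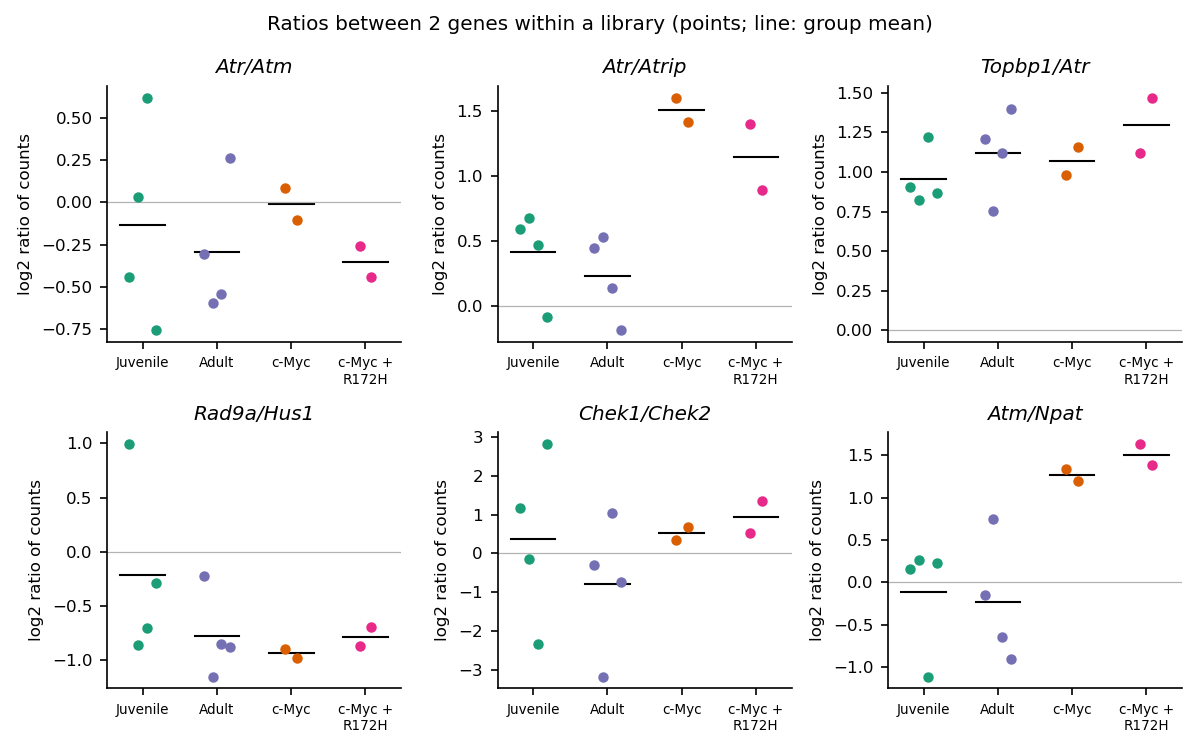
log2 ratio of the counts of 2 genes within each library (vertical axis) for 6 pairs, by group. Points are libraries and lines are group means. The c-Myc libraries lie above all juvenile libraries for *Atr*/*Atrip* and *Atm*/*Npat* and just below the lowest of them for *Rad9a*/*Hus1*. They lie within the juvenile range for *Atr*/*Atm*, *Topbp1*/*Atr* and *Chek1*/*Chek2*.

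*Atm* and its neighbour *Npat*, whose starts share the sequence printed above, had unequal fold changes too. *Npat* was at 12.1, 8.25, 13.9 and 9.56 CPM in juvenile, 15.2 and 16.3 CPM in c-Myc and 15.1 and 15.7 CPM in c-Myc + R172H libraries. Its log2 fold change on c-Myc induction was 0.50 ± 0.22 (adjusted p = 0.0688, edgeR), a 1.42-fold difference beside 3.61-fold for *Atm*. The log2 ratio of *Atm* to *Npat* was 0.154, 0.262, -1.11 and 0.224 in juvenile, 1.34 and 1.20 in c-Myc and 1.63 and 1.38 in c-Myc + R172H libraries, and the induced libraries lay above all juvenile and all adult ones, the highest adult ratio being 0.751. *Prkdc* was at 17.7 and 17.3 CPM in c-Myc libraries, 1.47-fold above juvenile (log2 fold change 0.56 ± 0.21, adjusted p = 0.0398), under the fold limit.

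The checkpoint genes were then set beside the licensing genes *Mcm2* to *Mcm7*, which encode the replicative helicase and stand for the replication programme of each library. All 6 were called higher on c-Myc induction, and their log2 fold changes had a median of 3.05. They lay at percentiles 95.8 to 97.6 of all genes tested, so most genes rose less than these 6. Relative to their summed counts, 6 of the 10 genes were lower in both c-Myc libraries than in every juvenile library. These were *Atr* (log2 difference -1.10), *Atm* (-1.23), *Topbp1* (-0.991), *Hus1* (-1.47), *Atrip* (-2.20) and *Rad9a* (-2.19). *Clspn*, *Chek1*, *Chek2* and *Wee1* overlapped with juvenile, with log2 differences of -0.39, 0.91, 0.77 and 0.04. The share of all genes that was lower in this way was not counted, so 6 of 10 cannot be read as particular to these genes.

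This pattern depended on the reference. *Pcna*, which encodes the sliding clamp of DNA polymerase, was at 16.6–24.1 CPM in juvenile and 71.9–83.9 CPM in c-Myc libraries. Relative to *Pcna* only *Atrip* remained below all juvenile libraries (-0.954), *Chek2* lay above them, and the signs of *Atr* (0.14), *Atm* (0.00862) and *Topbp1* (0.25) reversed. In c-Myc + R172H libraries the same 6 genes were below juvenile relative to *Mcm2* to *Mcm7*. Relative to *Pcna* *Atrip* alone was below, while *Clspn*, *Chek1* and *Chek2* lay above all juvenile libraries. Shares of all genes were not counted here either, so these counts have no background beside them. *Chek1* and *Chek2* had at most 23 counts in any juvenile library.

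**Figure D4:**
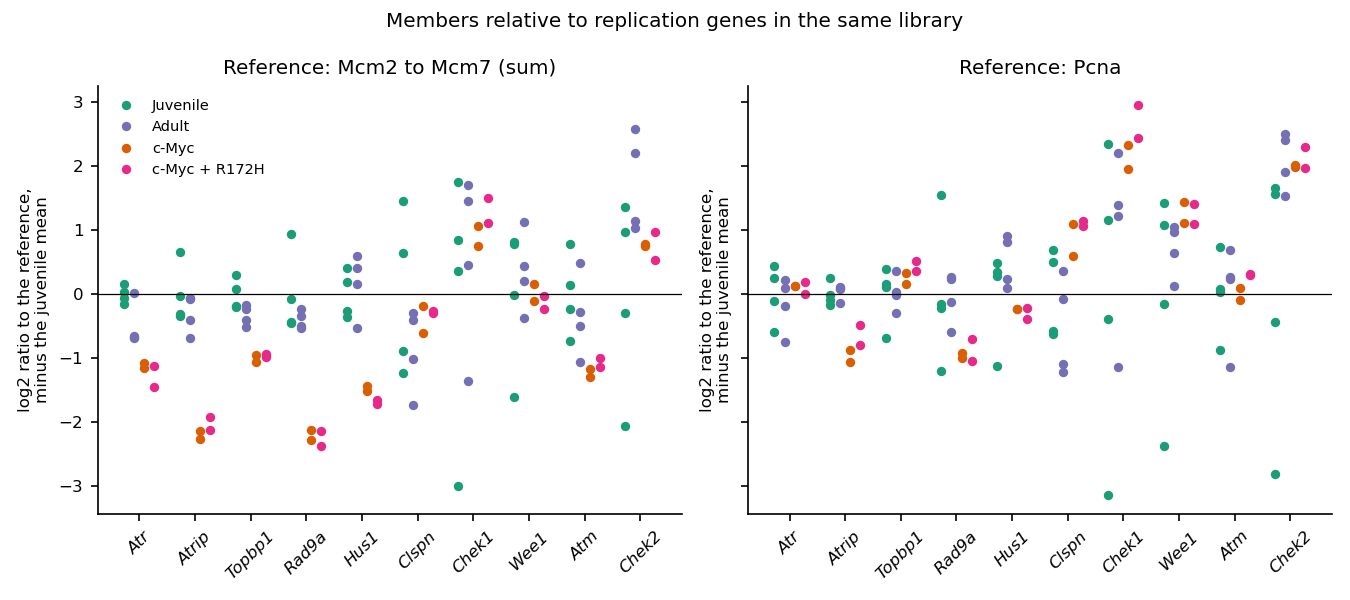
log2 ratio of each gene to the summed *Mcm2* to *Mcm7* counts (left) or to *Pcna* (right) in every library, minus the juvenile mean (vertical axis). Points are libraries, coloured by group. On the left, 6 genes lie below all juvenile points in both induced groups, and on the right only *Atrip* does.

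The wider pathway was counted in the same fit. Of 55 other pathway genes tested, 30 were called higher in c-Myc osteoblasts, beside 18.4% of all genes, and 0 lower, beside 16%. Their median log2 fold change was 1.17, beside 0.04 over all genes. By the adjusted p alone 41 were higher, beside 28.4% of all genes, and 1 was lower, beside 3149 of 12588 genes. The lower gene was *Btrc*, an F-box protein that targets WEE1 and claspin for destruction (14.6 ± 2.15 CPM, SD, n = 4, in juvenile and 9.65 ± 2.22 CPM, n = 2, in c-Myc osteoblasts, chosen after its value was seen). The cyclin, CDK and CDC25 group had 8 of 10 called. It holds the targets that the checkpoint restrains and also *Pkmyt1*, which encodes a kinase that inhibits CDK1 and was among those called. The largest rises were those of *Ccnb1* (1.89 ± 0.565 to 20.6 ± 3.66 CPM, log2 fold change 3.40 ± 0.26), *Ccne1* (2.19 ± 1.51 to 20.3 ± 0.0497 CPM, 3.25 ± 0.35) and *Ccna2* (6.38 ± 1.87 to 62.1 ± 6.80 CPM, 3.23 ± 0.19), cyclins of mitosis, the G1/S transition and S phase.

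Among genes acting beside the members, 5 of 7 ATR activators and fork proteins, 2 of 8 clamp and clamp loader genes, 2 of 4 break sensors, 4 of 7 break mediators, 2 of 3 DNA-PK subunits, 3 of 6 chaperones of the PI3K-like kinases and 4 of 10 recovery genes were called higher. The share over all genes was 18.4%, and no group was tested as a set. In c-Myc + R172H against juvenile osteoblasts 34 of the 55 were called higher, beside 19.6% of all genes, and 0 lower, beside 17.9%. *Ccna2* (3.22), *Ccne1* (3.10) and *Ccnb1* (3.01) were again the largest in log2 fold change. Between the 2 induced groups 0 of 55 were called in edgeR, 0 had an unadjusted p under 0.05, and 1 was called when only these 2 groups were fitted, a fit that called 189 genes higher and 440 lower of 12170.

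Over the 12 libraries, the genes whose pattern was most like that of *Atr* among 11275 genes were *Wdr18*, *Tarbp1* and *Kifc1*, with root mean square differences of 0.186, 0.186 and 0.194 on the log2 scale after each gene was centred on its mean. For *Atm* they were *Pes1* (0.219), *Mak16* (0.238) and *Gemin5* (0.243). The median over all genes was 1.04 for *Atr* and 1.05 for *Atm*. For *Chek1* they were *Ppat* (0.439), *Hmgb2* (0.489) and *Tacc3* (0.495), with a median of 1.61. The libraries share the step between induced and normal groups, and this likeness is a description of that common shape.

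The genomic positions on GRCm38 (GENCODE) place 5 of the 10 genes on chromosome 9. These are *Chek1* (36708482 to 36727065), *Atm* (53439149 to 53536740), *Atr* (95857597 to 95951781), *Topbp1* (103305215 to 103350428) and *Atrip* (109057933 to 109074124). *Clspn* lies on chromosome 4 (126556935 to 126593903), *Chek2* on chromosome 5 (110839979 to 110874145), *Wee1* on chromosome 7 (110122046 to 110143286), *Hus1* on chromosome 11 (8993137 to 9011191) and *Rad9a* on chromosome 19 (4195196 to 4201662). Reads were counted over the annotated exons of each gene.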

How the data were processed

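RNA-seq libraries were prepared from sorted mGFP+ metaphyseal cells with a directional kit and sequenced from 1 end. Per the labels and the study's methods, the authors used cutadapt 4.6 for trimming and STAR 2.7.11a for alignment to mm10, and deposited raw counts per gene from HTSeq 2.0.5 without normalization. The alignment and the counting used different GENCODE releases, and the strand setting of the counting is not given in the sources used here. Columns holding values of samples outside the series numbered 0.

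Libraries were grouped by their titles. Replicates of normal osteoblasts were separate pools of mice. Nothing in the labels says how many mice made up each induced library. The methods give their sex in 2 ways (males only, or both), and *Xist* showed female cells in part of these libraries. The p-values therefore measure the spread between libraries, which may be partly technical. Counts were tested with edgeR 4.0.16 (R 4.3.3) by the robust quasi-likelihood test after TMM scaling and edgeR's filter on low counts, with Benjamini-Hochberg adjustment over all genes tested. One fit held juvenile and adult libraries, and another those of juvenile and both induced groups. A gene was called at an adjusted p under 0.05, and in comparisons of induced with juvenile osteoblasts also if its log2 fold change was 1 or more in size. Standard errors were obtained as the size of the log2 fold change over the square root of F. Ratios within a library used counts plus 0.5 and, for the ages, exact permutation tests (scipy 1.17.1). DESeq2 1.42.0 was run as an alternative. Scripts were tested on simulated data. Positions and lengths are from GENCODE M21 on GRCm38. No 2 libraries of a group agreed within sampling noise.

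Named were all 10 genes, *Npat*, *Prkdc*, up to 3 called pathway genes with the largest rise or fall per comparison (groups not overlapping, mean of at least 10 normalized counts) and the 3 genes most alike to *Atr*, *Atm* and *Chek1*. The members, lists and rules were chosen with earlier results of these data known. Alternatives were other scalings, filters and fits, a replicate block, and leaving out each library.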

Additional observations from a re-analysis of the deposited data

Results flagged for a closer look

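In groups of 4 libraries, 42 sets of values (the levels of the 10 genes, *Npat* and *Prkdc* and the 9 ratios, in juvenile and adult osteoblasts) were checked for a library whose gap to its nearest neighbour exceeded 0.829 of the group's range, a limit that chance passes in about 1 of 20 sets. In juvenile replicate 4 *Atr* was at 6.58 CPM while the other 3 juvenile libraries lay between 9.87 and 10.1 CPM, a gap of 0.933 of the range. In juvenile replicate 3 the log2 ratio of *Atm* to *Npat* was -1.11 while the other 3 lay between 0.154 and 0.262, a gap of 0.921 of the range. Leaving out juvenile replicate 4 left *Atr* uncalled between the ages and called on c-Myc induction, as the range over left-out libraries (1.90 to 2.14 in log2 fold change) shows.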

How the results depend on the processing

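Of the 10 genes, 8 to 10 were called higher in c-Myc osteoblasts under every alternative except a filter of at least 10 counts in every library, which tested 7 of them and called 5. Fold changes of the induced against the juvenile group kept their direction for all 10 genes under all alternatives. The genes whose call changed were *Atrip* (called with library totals at 1.80, without a filter at 1.02 and with a replicate block at 1.01) and *Rad9a* (called with library totals at 1.5, and 1.35 without juvenile replicate 1). Against juvenile, c-Myc + R172H osteoblasts had 6 to 10 genes called. Other pathway genes called higher on c-Myc induction numbered 49 with library totals, against 30, while over all 12588 genes 5234 against 2320 were called higher, and 1 pathway gene was lower by the adjusted p alone in each comparison with juvenile. Between the ages the pathway count was 1 without a filter, 2 with all 12 libraries in the fit, 1 by DESeq2 and 0 to 1 with a library left out, and between the induced groups it was 1 with only these groups fitted. The cause was not tested.

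Small differences that were never called changed sign. Between the ages, library totals, which shifted the median of all genes to -0.24, gave log2 fold changes of -0.034 for *Atr*, -0.168 for *Atm* and -0.228 for *Topbp1*, and leaving out 1 library gave -0.152 to 0.202 for *Atm*, -0.101 to 0.0865 for *Atrip*, -0.295 to 0.584 for *Rad9a*, -0.113 to 0.206 for *Topbp1* and -0.659 to 0.0318 for *Wee1*. Between the induced groups, library totals gave 0.0995 for *Atr*, 0.201 for *Rad9a*, 0.0507 for *Hus1* and 0.117 for *Wee1*. There *Rad9a* was at 0.011 with upper-quartile factors and 0.000361 with only the 2 groups fitted, and leaving out 1 library gave -0.172 to 0.131 for *Rad9a*, -0.222 to 0.259 for *Chek2* and -0.325 to 0.0302 for *Atr*. With *Pcna* in place of *Mcm2* to *Mcm7*, the log2 differences from juvenile were 0.137 for *Atr*, 0.00862 for *Atm* and 0.251 for *Topbp1* in c-Myc and 0.101, 0.317 and 0.44 in c-Myc + R172H osteoblasts.

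Between the ages same-numbered libraries did not deviate together (correlations of -0.0917 to 0.0604). Between the induced groups the correlation was 0.168. With 2 libraries a group both pairs give the same value, so pairing cannot be judged there. The replicate block gave 0.00794 for *Atrip* between the ages and 0.029 for *Rad9a* between the induced groups. It gave 3.57 for *Clspn*, 2.53 for *Chek2*, 2.4 for *Chek1* and 2.11 for *Wee1* between c-Myc and juvenile and 2.88 for *Chek1* between c-Myc + R172H and juvenile osteoblasts, so the order of these genes by fold change depended on it. Over all genes the block moved the calls from 214 higher and 367 lower to 166 and 268 between the ages, and from 1 and 58 to 30 and 296 between the induced groups. Depth limits *Chek1*, *Chek2* and *Wee1* most, as single normal libraries had 0 to 3 counts of each. Ratios of *Chek1* and *Chek2* without an added count have no value where a library is at 0.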
